A study of Mus musculus with 10 samples.

Results

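The enzymes that turn arachidonic acid into leukotrienes, and those that turn prostaglandin H2 into prostanoids other than PGE2, were followed as 9 genes in whole melanoma tumors whose cancer cells had or lacked cyclooxygenase. The genes were taken by name from the 45706 in the count table: *Alox5*, *Alox5ap*, *Lta4h*, *Ltc4s* and *Alox15* on the lipoxygenase side, and *Hpgds*, *Ptgds*, *Ptgis* and *Tbxas1* on the prostanoid side. *Tbxas1*, which encodes thromboxane A synthase, showed the largest difference of the 9 in *Ptgs*-/- against *Ptgs*+/+ tumors. It averaged 16.2 ± 4.21 CPM (counts scaled to library total; SD, n = 4) with cyclooxygenase-competent cells (*Ptgs*+/+ tumors), 61.6 ± 9.44 (SD, n = 3) with deficient cells (*Ptgs*-/- tumors) and 48.2 ± 4.68 (SD, n = 3) where the hosts had been depleted of NK cells (NK-depleted tumors). *Alox5ap*, *Alox5*, *Ltc4s* and *Hpgds* were also higher in *Ptgs*-/- than in *Ptgs*+/+ tumors, and the calls of *Alox5*, *Ltc4s* and *Hpgds* were each lost without *Ptgs*-/- replicate 2, those of *Alox5* and *Ltc4s* also without other single libraries.

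Cyclooxygenases, encoded by *Ptgs1* and *Ptgs2*, make prostaglandin H2, and a separate terminal synthase then sets which prostanoid a cell releases. Thromboxane A synthase makes the platelet-activating and constricting thromboxane A2, prostacyclin synthase (*Ptgis*) makes the opposing prostacyclin, and the hematopoietic (*Hpgds*) and lipocalin-type (*Ptgds*) synthases make PGD2. Leukotrienes come from the same fatty acid without cyclooxygenase: 5-lipoxygenase (*Alox5*), helped by its activating protein (*Alox5ap*), makes leukotriene A4, which *Lta4h* turns into the neutrophil attractant leukotriene B4 and *Ltc4s* into the cysteinyl leukotrienes. Macrophages, granulocytes and mast cells are known as the main carriers of this leukotriene machinery, and platelets and macrophages as carriers of thromboxane synthase.

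The 10 tumors grew in C57BL/6 mice 8 weeks of age and were removed 4 days after subcutaneous injection. The tumor cells were a *Braf*-mutant melanoma line from a C57BL/6 mouse model with a tyrosinase promoter-driven, inducible Cre and no p16INK4a, and the same line made deficient in *Ptgs1* and *Ptgs2* with CRISPR/Cas9. Whether the deficient line is 1 clone is not stated in the sources used here, and the hosts kept both genes. The *Ptgs*+/+ tumors (n = 4) and the *Ptgs*-/- tumors (n = 3) came from untreated mice. The 3 NK-depleted tumors had deficient cells too. Their hosts received anti-NK1.1 (clone PK136, 200 µg) together with anti-asialo GM1 (30 µg) on the day of injection and again on day 2, per the labels. Libraries were read at the 3′ ends of transcripts, so that counts do not scale with gene length and levels of different genes can be set side by side in CPM. Totals ran from 8150556 to 12839174 counts per library, and 3 counts, taken as the detection floor, corresponded to 0.234 to 0.368 CPM. The labels call the tumors separate samples without naming the animals, so p-values measure the spread between these samples. In bulk tumor, fewer cells of a type and less RNA per cell cannot be told apart.

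The labels were checked first. *Ptgs1* averaged 152 ± 17.5 CPM (SD) in the 4 *Ptgs*+/+, 94.0 ± 15.0 in the 3 *Ptgs*-/- and 96.5 ± 1.24 in the 3 NK-depleted tumors, and *Ptgs2* 253 ± 110, 43.0 ± 27.6 and 44.8 ± 4.56 CPM. *Ncr1*, an NK cell receptor gene, had 0 counts in each NK-depleted library, which allows up to 3 counts. Defining melanocytic genes were low in every group: *Tyr*, *Mlana* and *Tyrp1* lay at or under the floor in all 10 libraries, and the list's summed level of 20.6 to 36.4 CPM was mostly *Mitf*. *Ptgs*+/+ replicate 3 stood apart from the other *Ptgs*+/+ libraries in 324 low and 228 high genes of the 14550 tested, against 29 to 79 low and 58 to 86 high genes for the others. Its *Ptgs2* level was 94.4 CPM, against 283 to 347 in the others. *Ptgs*+/+ replicate 4 and *Ptgs*-/- replicate 3 carry the code EB042 in their titles and all other libraries EB046, and no source used here says what the codes mark.

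RefSeq promoter windows of GRCm38.p6 (250 bases before to 50 after each gene's start) were found for 6 of the 9 genes. Those of the 4 genes with a window that passed the test in *Ptgs*-/- against *Ptgs*+/+ tumors are shown, since these genes were higher together. Capitals mark matches, on either strand, to letter patterns chosen for factors of immune cells and general promoters. The *Tbxas1* window is chr6:38918736-38919035 on the plus strand, the *Ltc4s* window chr11:50238483-50238782, the *Hpgds* window chr6:65144681-65144980 and the *Alox5* window chr6:116461129-116461428, these 3 on the minus strand. RefSeq places the *Tbxas1* start at 38918986, inside the span that GENCODE gives the gene.
Tbxas1: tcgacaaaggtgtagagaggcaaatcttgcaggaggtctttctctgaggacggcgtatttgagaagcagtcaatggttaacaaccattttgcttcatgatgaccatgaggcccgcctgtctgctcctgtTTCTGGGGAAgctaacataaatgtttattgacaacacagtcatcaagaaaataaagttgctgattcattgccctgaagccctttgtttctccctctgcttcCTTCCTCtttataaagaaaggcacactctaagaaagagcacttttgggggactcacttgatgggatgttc
Ltc4s: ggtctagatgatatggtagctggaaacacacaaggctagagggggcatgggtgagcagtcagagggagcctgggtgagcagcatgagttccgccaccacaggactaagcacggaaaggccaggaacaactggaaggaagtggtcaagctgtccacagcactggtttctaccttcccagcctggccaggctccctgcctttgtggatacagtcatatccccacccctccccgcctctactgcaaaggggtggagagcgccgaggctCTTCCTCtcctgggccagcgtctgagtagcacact
Hpgds: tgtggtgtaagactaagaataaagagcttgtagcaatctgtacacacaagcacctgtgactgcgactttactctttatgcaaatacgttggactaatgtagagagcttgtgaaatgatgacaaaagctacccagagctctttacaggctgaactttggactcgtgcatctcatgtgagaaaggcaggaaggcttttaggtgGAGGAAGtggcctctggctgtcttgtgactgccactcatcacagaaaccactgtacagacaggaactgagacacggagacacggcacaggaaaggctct
Alox5: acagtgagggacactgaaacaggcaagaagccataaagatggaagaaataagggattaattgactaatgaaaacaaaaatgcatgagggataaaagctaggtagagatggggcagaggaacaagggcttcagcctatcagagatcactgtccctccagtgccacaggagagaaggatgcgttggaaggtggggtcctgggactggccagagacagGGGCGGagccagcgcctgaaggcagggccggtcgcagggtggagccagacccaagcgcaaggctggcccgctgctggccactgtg

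GAGGAAG, the pattern of PU.1 (a factor of macrophages and granulocytes), was in 3 of these 4 windows, at position 15 from the start in *Ltc4s*, -49 in *Hpgds* and -20 in *Tbxas1*, counting the start as 0. It was in neither of the other windows found, those of *Lta4h* and *Ptgds*, and in 13.6% of all 32851 windows of the same length. The STAT6-type pattern, TTC and GAA with 4 bases between, was in the *Tbxas1* window alone, at -121, and in 6.95% of all windows. GGGCGG, the GC box of Sp1, was in the *Alox5* window alone, at -35, and in 35.7% of all windows. TGACGTCA, the pattern of CREB, was in none of the 6, and in 1.79% of all windows. No 2 of these matches overlapped. The windows shown were chosen by the test, and whether the patterns go with the calls was not tested. The matches describe letters in these windows and not binding.

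To ask whether the cancer cells' cyclooxygenase goes with these enzymes, *Ptgs*-/- tumors were compared with *Ptgs*+/+ tumors with edgeR (quasi-likelihood test, Benjamini-Hochberg adjustment over 14550 genes), and a gene was called at an adjusted p of 0.05 or less. All 9 genes passed the filter on low counts. Of the 9, 5 were called higher and 0 lower, a share of 55.6%, where 23.1% of all genes tested were called, 12.1% higher and 11% lower. With the log2 fold threshold of 1.5 that the study's methods add, *Tbxas1* alone of the 9 was called, against 4.15% of all genes. In the same 5 genes every *Ptgs*-/- library lay above every *Ptgs*+/+ library, as in 18.1% of all genes. The median log2 difference was 0.66 over the 9 and -0.01 over all genes tested. Since the 9 were chosen with earlier results of these data known, these shares and medians, and those below, are descriptions. By level, *Alox5ap* and *Lta4h* led in every group. *Tbxas1* was the sixth of 9 in *Ptgs*+/+ tumors, where *Ptgis*, *Hpgds* and *Ltc4s* lay above it and the ranges of *Hpgds*, *Ltc4s* and *Tbxas1* overlapped, and the third in both *Ptgs*-/- groups, where its lowest library lay above the highest *Ltc4s* and *Hpgds* library, though in *Ptgs*-/- tumors its range overlapped with that of *Ptgis*. *Alox5*, *Alox15* and *Ptgds* were the lowest of the 9 in that order in all groups.

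**Figure D1:**
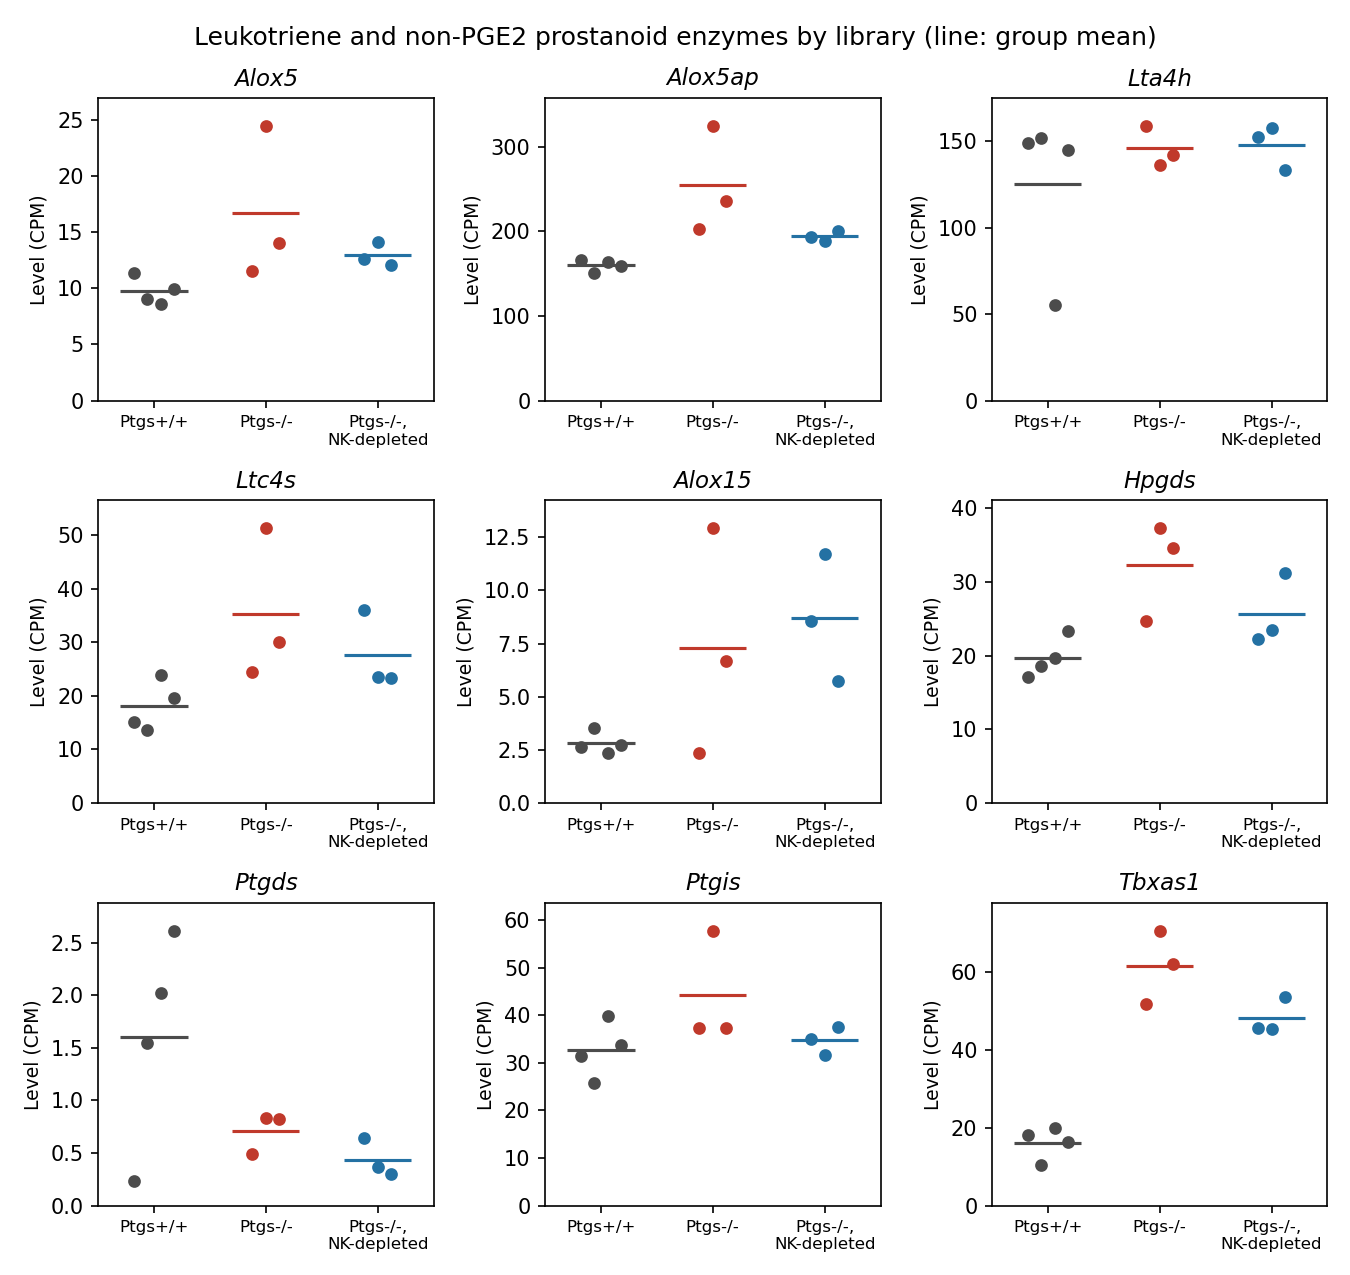
Level of each of the 9 enzyme genes (y axis, CPM, from 0) in every tumor library, by group on the x axis; points are libraries in the order of their replicates and lines are group means. The 6 *Tbxas1* points of *Ptgs*-/- and NK-depleted tumors sit between 45.3 and 70.8 CPM, above the 4 *Ptgs*+/+ points at 10.3 to 20.01.

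Thromboxane synthase was the clearest case. *Tbxas1* (ENSMUSG00000029925, GRCm38 chr6:38875404-39084585, plus strand, protein-coding) stood at 18.1, 10.3, 20.01 and 16.3 CPM in the 4 *Ptgs*+/+ tumors. It stood at 51.9, 70.8 and 62.1 CPM in the *Ptgs*-/- tumors, and at 45.8, 45.3 and 53.6 CPM in NK-depleted tumors. The lowest *Ptgs*-/- value was thus above the highest *Ptgs*+/+ value whether or not the hosts had NK cells, and the 2 *Ptgs*-/- groups overlapped. In *Ptgs*-/- against *Ptgs*+/+ tumors the gene was 3.64-fold higher (95% interval 2.74 to 4.85), a log2 difference of 1.86 (standard error 0.19, adjusted p = 0.000115, edgeR). Leaving out each of the 10 libraries in turn gave log2 differences of 1.71 to 1.98, all past the threshold.

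Prostacyclin synthase, which uses the same substrate, did not pass the test. *Ptgis* (ENSMUSG00000017969, chr2:167191805-167240604, minus strand) stood at 31.4, 25.8, 39.8 and 33.7 CPM in *Ptgs*+/+ tumors, 37.4, 57.8 and 37.4 in *Ptgs*-/- tumors, and 35.1, 31.6 and 37.5 in NK-depleted tumors. Only *Ptgs*-/- replicate 2 lay above all *Ptgs*+/+ tumors. The log2 difference was 0.38, with a 95% interval from -0.01 to 0.77 (adjusted p = 0.152, edgeR). The ratio of *Tbxas1* to *Ptgis* within a library, looked at after the values were seen, ran from 0.400 to 0.578 in *Ptgs*+/+ tumors, from 1.22 to 1.66 in *Ptgs*-/- tumors and from 1.30 to 1.43 in NK-depleted tumors. Counts of prostacyclin synthase were thus above those of thromboxane synthase in each *Ptgs*+/+ tumor and below them in each *Ptgs*-/- tumor.

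The 2 PGD2 synthases lay far apart in level. *Hpgds* (ENSMUSG00000029919, chr6:65117293-65144908, minus strand), the form of mast cells, macrophages and T helper cells, stood at 17.1, 18.7, 19.7 and 23.3 CPM in *Ptgs*+/+ tumors and at 24.8, 37.3 and 34.7 in *Ptgs*-/- tumors. The groups did not overlap, with *Ptgs*-/- replicate 1 only slightly above the highest *Ptgs*+/+ library. The log2 difference was 0.66 (95% interval 0.29 to 1.03, adjusted p = 0.0162, edgeR), and without *Ptgs*-/- replicate 2 it was 0.54 and no longer past the threshold (adjusted p = 0.0732). *Ptgds* (ENSMUSG00000015090, chr2:25466709-25470046, minus strand), the form known from brain and heart, was close to the floor, with counts of 3, 15, 23 and 25 in the *Ptgs*+/+ group, 4, 8 and 9 in the *Ptgs*-/- group and 6, 4 and 3 in the NK-depleted group. In CPM, *Ptgs*+/+ replicate 1 was the lowest of all 10 libraries and the other *Ptgs*+/+ libraries were the highest. Its log2 difference of -1.16 had an interval from -2.51 to 0.18 (adjusted p = 0.199, edgeR), and without *Ptgs*+/+ replicate 1 it was -1.54 and past the threshold (adjusted p = 0.0209).

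On the leukotriene side, transcripts of *Alox5ap* and *Alox5*, the genes of the 5-lipoxygenase step, were called higher in *Ptgs*-/- tumors. *Alox5ap* (ENSMUSG00000060063, chr5:149264767-149288153, plus strand) had the highest mean level of the 9, at 166, 151, 164 and 160 CPM in *Ptgs*+/+ tumors and 203, 325 and 236 in *Ptgs*-/- tumors. The 4 *Ptgs*+/+ tumors were closely grouped and all below the *Ptgs*-/- tumors, of which replicate 2 was the highest. The log2 difference was 0.61 (95% interval 0.31 to 0.91, adjusted p = 0.00814, edgeR), and it stayed past the threshold without any one of the 10 libraries (0.40 to 0.74). *Alox5* itself (ENSMUSG00000025701, chr6:116410077-116461178, minus strand), the enzyme that the activating protein serves, stood at 11.4, 9.07, 8.60 and 9.94 CPM in *Ptgs*+/+ tumors and 11.5, 24.5 and 14.0 in *Ptgs*-/- tumors. *Ptgs*-/- replicate 1 barely exceeded *Ptgs*+/+ replicate 1, and replicate 2 was the highest of all. The log2 difference of 0.72 (95% interval 0.21 to 1.23) was just past the threshold (adjusted p = 0.0435, edgeR), and without *Ptgs*-/- replicate 2 it was 0.34 (adjusted p = 0.228). It was past the threshold in 2 of the 10 fits with a library left out, those without *Ptgs*-/- replicate 1 or 3 (adjusted p from 0.0135 to 0.228 over the 10). Across the 10 libraries, *Alox5ap* counts exceeded those of *Alox5* by a ratio of 13.3 to 19.1, with overlapping ranges in the groups.

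Of the genes of the 2 branches after leukotriene A4, that of the cysteinyl branch was called higher. *Ltc4s* (ENSMUSG00000020377, chr11:50236461-50238616, minus strand), which makes leukotriene C4, stood at 15.1, 13.7, 23.9 and 19.6 CPM in *Ptgs*+/+ tumors and 24.4, 51.3 and 30.1 in *Ptgs*-/- tumors. Again *Ptgs*-/- replicate 2 was the highest and replicate 1 lay next to the highest *Ptgs*+/+ library, without overlap. The log2 difference was 0.91 (95% interval 0.32 to 1.51, adjusted p = 0.0320, edgeR), and 0.54 (adjusted p = 0.173) without *Ptgs*-/- replicate 2, and the call was also lost without *Ptgs*+/+ replicate 1, 2 or 4 (adjusted p from 0.0152 to 0.173 over the 10 fits with a library left out). *Lta4h* (ENSMUSG00000015889, chr10:93453411-93484875, plus strand), the leukotriene B4 branch, stood at 149, 152, 55.1 and 145 CPM in *Ptgs*+/+ tumors, 159, 137 and 142 in *Ptgs*-/- tumors, and 153, 158 and 133 in NK-depleted tumors. All libraries but *Ptgs*+/+ replicate 3 lay in one range. The log2 difference was 0.16 with an interval from -0.43 to 0.75 (adjusted p = 0.707, edgeR), and it was -0.08 without *Ptgs*+/+ replicate 3. The branches were compared only by these separate tests, and the difference between their differences was not tested.

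*Alox15* (ENSMUSG00000018924, chr11:70344152-70352031, minus strand) encodes the lipoxygenase of eosinophils and resident macrophages that leads to lipoxins and related mediators. It was low, with 34, 34, 27 and 26 counts (2.65, 3.51, 2.37 and 2.72 CPM) in *Ptgs*+/+ tumors and 19, 125 and 73 counts (2.33, 12.9 and 6.66 CPM) in *Ptgs*-/- tumors. *Ptgs*-/- replicate 1 was the lowest of all 10 libraries, and replicates 2 and 3 were above all *Ptgs*+/+ tumors. The log2 difference of 1.33 (95% interval 0.35 to 2.32) missed the threshold (adjusted p = 0.0526, edgeR), and it was 1.73 (adjusted p = 0.00441) without *Ptgs*-/- replicate 1. Without replicate 2 it was 0.64 (adjusted p = 0.330).

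**Figure D2:**
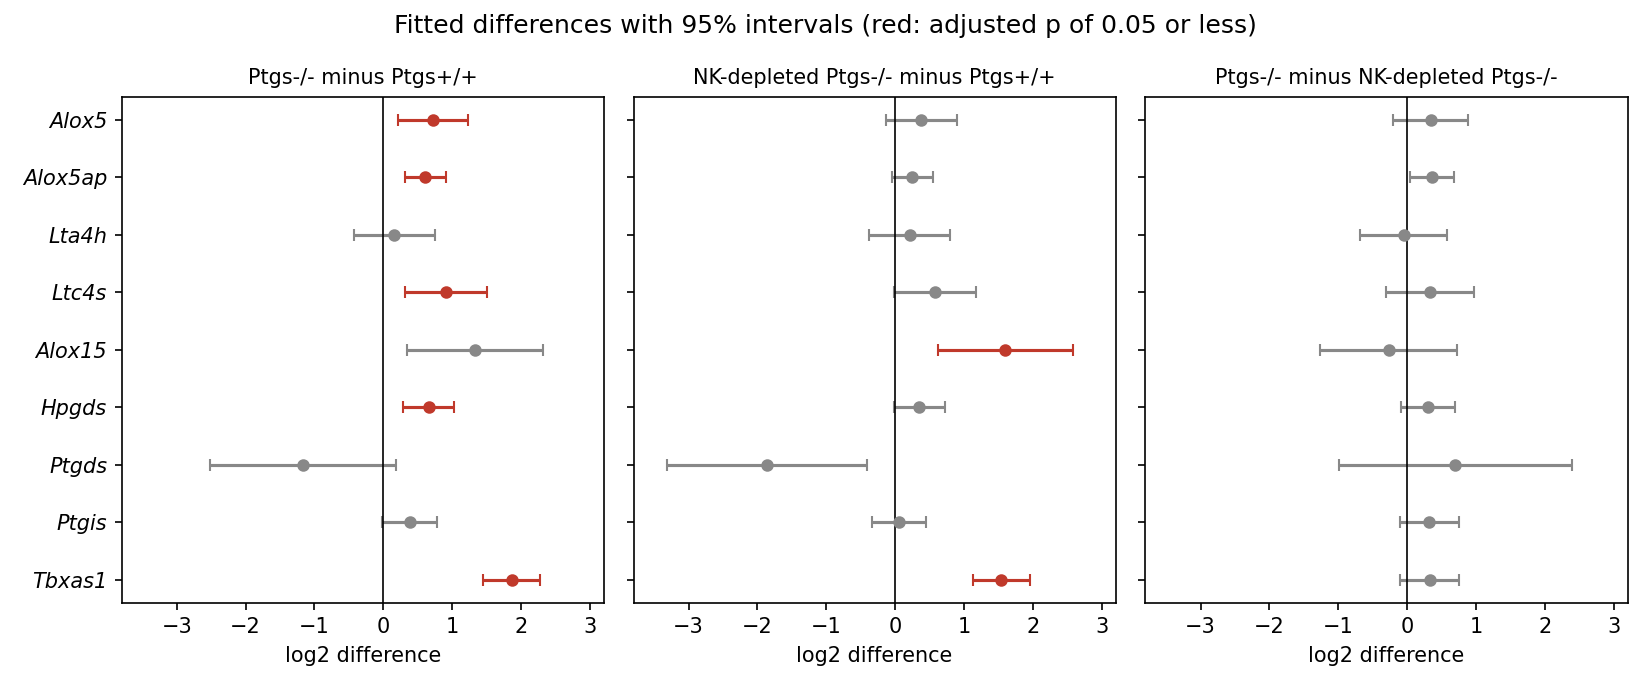
Fitted log2 difference of each enzyme gene (points) with its 95% interval (bars) in the 3 comparisons; red marks genes called at an adjusted p of 0.05 or less. In the left panel 5 genes are called, in the middle panel *Alox15* and *Tbxas1*, and in the right panel none.

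To ask what remained of this without NK cells, NK-depleted tumors were compared with the same *Ptgs*+/+ tumors. Of the 9 genes, 2 were called higher and 0 lower, a share of 22.2% against 12.5% of all genes tested (6.63% higher and 5.87% lower). Both also passed the fold threshold of 1.5, as did 2.71% of all genes. *Tbxas1* was 2.90-fold higher (95% interval 2.18 to 3.86), a log2 difference of 1.54 (standard error 0.19, adjusted p = 0.000353, edgeR), and it was past the threshold without any one of the 10 libraries (1.38 to 1.66). *Alox15* stood at 8.56, 11.7 and 5.76 CPM in these tumors, each above every *Ptgs*+/+ tumor, with a log2 difference of 1.60 (95% interval 0.63 to 2.57, adjusted p = 0.0371, edgeR). That call held in 3 of the 10 fits with a library left out, in which the log2 difference ran from 1.31 to 1.84 and the adjusted p from 0.00613 to 0.15. *Alox5* at 12.6, 14.1 and 12.1 CPM and *Alox5ap* at 193, 189 and 201 CPM also lay above every *Ptgs*+/+ tumor. So 4 of the 9 did not overlap in this comparison and were higher, against 15.1% of all genes, but these differences were smaller (0.38, adjusted p = 0.336, and 0.25, adjusted p = 0.280, edgeR). *Ltc4s* at 36.1, 23.5 and 23.2 CPM and *Hpgds* at 22.3, 23.5 and 31.2 CPM overlapped with *Ptgs*+/+ tumors, with log2 differences of 0.58 (95% interval -0.02 to 1.18) and 0.35 (-0.02 to 0.72). *Ptgds* had a log2 difference of -1.86 with an interval from -3.32 to -0.41 that did not pass the adjusted threshold (adjusted p = 0.0927, edgeR). *Lta4h* and *Ptgis* had differences of 0.21 (-0.38 to 0.80) and 0.06 (-0.34 to 0.45).

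The direct comparison set *Ptgs*-/- tumors of untreated hosts against those of hosts given both antibodies. It called none of the 9 by edgeR or by DESeq2, where 1.44% of all genes tested were called by edgeR. Skeletal muscle markers were also higher in the NK-depleted group, and code EB042 was in the other group alone. The presence of NK cells cannot be told apart from these differences. At an unadjusted p under 0.05 there was 1 of the 9, *Alox5ap*, against 11.2% of all genes. *Alox5ap* was the 1 gene of the 9 whose groups did not overlap, with NK cell-competent hosts higher as in 10.4% of all genes, since each of its 3 libraries from NK cell-competent mice was above each NK-depleted one. Its log2 difference was 0.37 (95% interval 0.04 to 0.69, adjusted p = 0.371, edgeR). For *Tbxas1* the difference was 0.33, with an interval from -0.10 to 0.76 (adjusted p = 0.598), for *Alox5* 0.34 (-0.20 to 0.88), for *Ltc4s* 0.33 (-0.30 to 0.97), for *Hpgds* 0.31 (-0.09 to 0.70), and for *Ptgis* 0.32 (-0.10 to 0.75). These intervals hold 0 as well as differences of the size seen between *Ptgs*-/- and *Ptgs*+/+ tumors for *Alox5*, *Ltc4s* and *Hpgds*, so no difference was detectable with 3 tumors a group. For *Tbxas1* the upper bound of 0.76 lay under the lower bound of its difference from *Ptgs*+/+ tumors, 1.45, which shares the *Ptgs*-/- libraries. *Lta4h* (-0.05), *Alox15* (-0.27) and *Ptgds* (0.70) had intervals of -0.68 to 0.59, -1.26 to 0.73 and -0.99 to 2.40. Without *Ptgs*-/- replicate 2, *Alox5* and *Ltc4s* turned to -0.04 each.

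Marker lists show which cells' transcripts moved beside the enzymes. The 10 macrophage markers, led by the complement gene *C1qa*, summed to 1777 to 2104 CPM in *Ptgs*+/+ tumors, 2854 to 4435 in *Ptgs*-/- tumors and 2616 to 2962 in NK-depleted tumors, and 7 of the 10 were called higher and 0 lower in *Ptgs*-/- against *Ptgs*+/+ tumors. Fewer were called in NK-depleted against *Ptgs*+/+ tumors, 3 higher and 1 lower. *Ptgs*-/- replicate 2 had the highest macrophage sum, as it had the highest *Alox5*, *Alox5ap*, *Ltc4s*, *Hpgds*, *Ptgis* and *Tbxas1* levels. The 10 neutrophil markers, led by the protease gene *Mmp9*, went the other way, at 357 to 596 CPM, 67.7 to 96.6 and 125 to 181, with 4 of 6 tested lower and 0 higher in *Ptgs*-/- against *Ptgs*+/+ tumors. The other tested markers were *Csf3r*, at means of 3.38 and 5.40 CPM in *Ptgs*+/+ and *Ptgs*-/- tumors without overlap (adjusted p = 0.123, edgeR), and *Retnlg*, at 5.41 and 6.75 CPM. In NK-depleted against *Ptgs*+/+ tumors 4 were lower and *Retnlg* was higher, at a mean of 18.7 CPM. The defining *Ly6g* was at most 0.389 CPM in any library. In *Ptgs*-/- tumors, 4 of the 10 neutrophil markers were at or under the floor in every library. The 6 platelet and megakaryocyte markers, led by the chemokine gene *Pf4*, summed to 470 to 555, 277 to 410 and 283 to 322 CPM, with 2 of 4 tested lower and 0 higher. The sum was mostly *Pf4*, at a mean of 444 CPM in *Ptgs*+/+ and 266 in *Ptgs*-/- tumors, and *Ppbp* was the other gene called lower. The integrin genes *Itga2b*, at 17.1 and 22.6 CPM, and *Itgb3*, at 21.7 and 35.5 CPM, did not pass the test, and the defining *Gp1ba* and *Gp9* were near the floor and not tested. The higher *Tbxas1* thus stood beside a higher macrophage marker sum, a lower neutrophil marker sum and lower *Pf4* and *Ppbp*. The part of these cells in the enzyme levels was not tested.

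Mast cell and basophil markers, led by the chymase gene *Cma1*, summed to 134 to 184 CPM in *Ptgs*+/+ tumors, 55.0 to 265 in *Ptgs*-/- tumors and 172 to 282 in NK-depleted tumors, with 1 of 8 tested lower and 0 higher in *Ptgs*-/- against *Ptgs*+/+ tumors. *Ptgs*-/- replicate 1 held the lowest sum and replicate 2 the highest of their group, the order there of *Alox5*, *Alox5ap*, *Ltc4s*, *Alox15*, *Hpgds* and *Tbxas1* and of the macrophage sum. Eosinophil markers were low, led by *Ccr3* at means of 3.56, 6.51 and 9.23 CPM in *Ptgs*+/+, *Ptgs*-/- and NK-depleted tumors. Of the 6, 3 were at or under the floor in every library of each group, including *Epx* at 0 counts. The 6 summed to 3.61 to 6.49, 5.15 to 14.3 and 7.85 to 18.5 CPM, and the NK-depleted range lay above that of *Ptgs*+/+ tumors, as for *Alox15*. Of 2 tested, 1 was called higher in *Ptgs*-/- and 2 in NK-depleted against *Ptgs*+/+ tumors, with 0 lower in both. Fibroblast markers, led by *Col1a2*, summed to 7516 to 10437 CPM in *Ptgs*+/+ tumors, 13440 to 16624 in *Ptgs*-/- tumors and 10685 to 13622 in NK-depleted tumors, with 4 of 6 higher. In the same order, endothelial markers, led by *Pecam1*, summed to 249 to 286, 112 to 238 and 172 to 262 CPM. Smooth muscle and pericyte markers, led by *Rgs5*, summed to 293 to 391, 106 to 277 and 225 to 299 CPM. In *Ptgs*-/- against *Ptgs*+/+ tumors 2 of 6 and 1 of 6 of these genes were called lower, and 0 higher. Skeletal muscle markers, led by *Acta1*, were at 2049 to 5080 CPM in NK-depleted tumors, against 24.8 to 162 and 106 to 377 in the other groups. NK cell, T cell and dendritic cell markers were low but higher in *Ptgs*-/- than in *Ptgs*+/+ tumors for 5 of 5, 4 of 5 and 4 of 7 genes tested. The part of each in the enzyme levels was not tested.

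**Figure D3:**
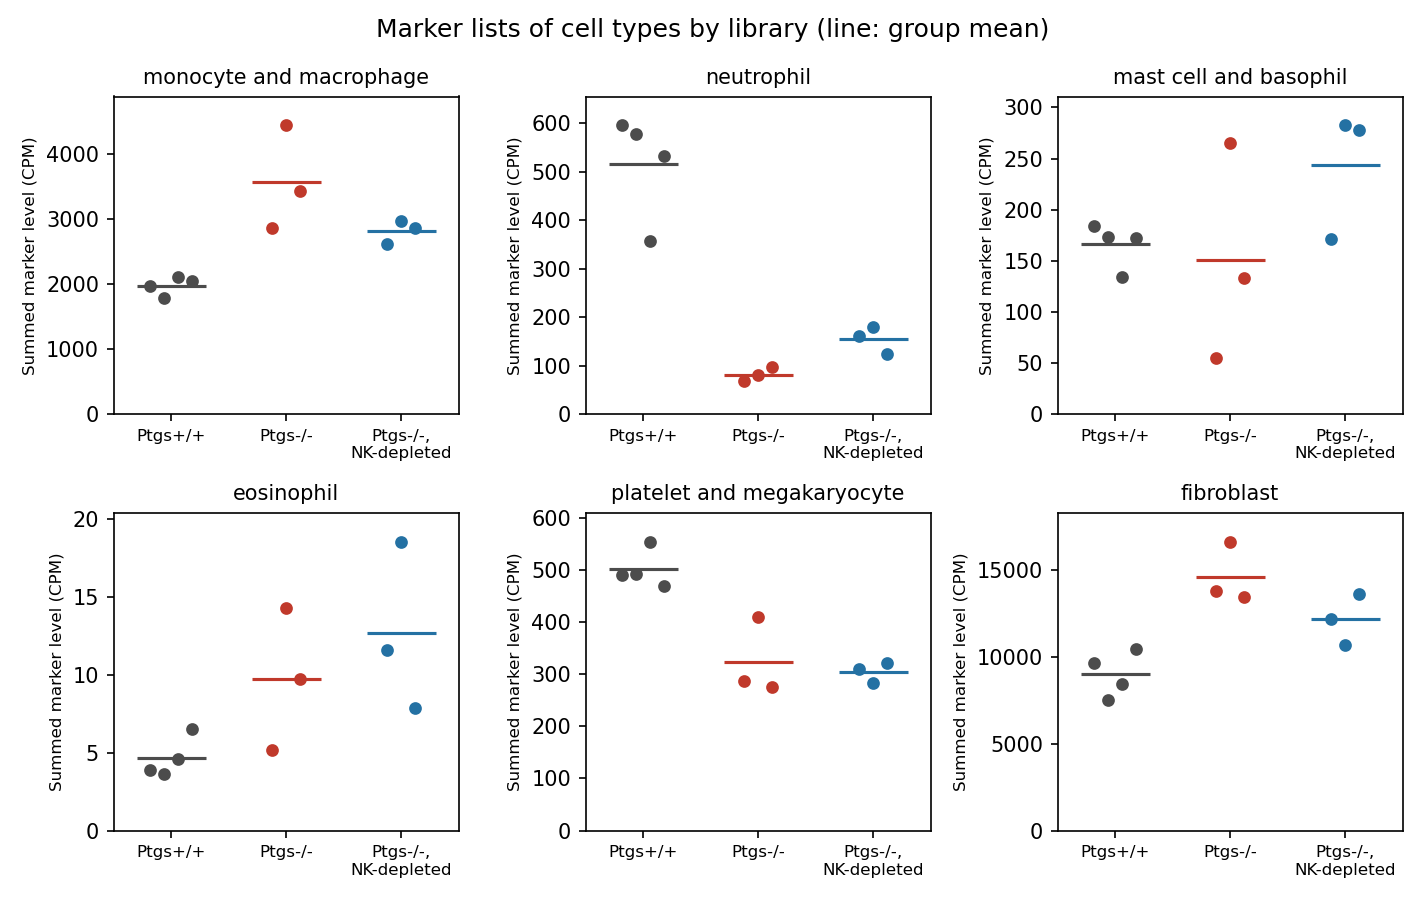
Summed level of the marker genes of 6 cell types (y axis, CPM, from 0) in each library, by group; points are libraries and lines are group means. Macrophage sums are above those of *Ptgs*+/+ tumors in all *Ptgs*-/- libraries, and neutrophil and platelet sums are below them.

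Set against the macrophage sum of the same library, the enzymes fell into different patterns. This ratio was chosen after the values were seen and is a description. Per 1000 CPM of macrophage markers, *Tbxas1* stood at 5.80 to 9.51 CPM in *Ptgs*+/+ tumors, 16.0 to 18.2 in *Ptgs*-/- tumors and 15.3 to 18.8 in NK-depleted tumors, so that all *Ptgs*-/- tumors remained above all *Ptgs*+/+ tumors. *Alox5* was at 4.09 to 5.78, 4.04 to 5.53 and 4.24 to 4.83, *Hpgds* at 8.67 to 11.4, 8.42 to 10.1 and 7.94 to 10.9, and *Ltc4s* at 7.68 to 11.3, 8.56 to 11.6 and 7.94 to 13.8, and their groups overlapped. *Alox5ap* was at 77.8 to 85.0 in *Ptgs*+/+ tumors and lower, at 69.0 to 73.4 and 63.9 to 73.8, in both *Ptgs*-/- groups. On this scale *Tbxas1* alone of the 5 genes called in *Ptgs*-/- against *Ptgs*+/+ tumors kept its order of groups. Of the genes not called there, *Alox15* was at 1.13 to 1.97, 0.817 to 2.92 and 2.02 to 3.96. Its NK-depleted tumors thus remained above all *Ptgs*+/+ tumors. *Ptgis* was at 14.5 to 18.9 in *Ptgs*+/+ tumors and lower, at 10.9 to 13.1 and 10.7 to 13.4, in both *Ptgs*-/- groups. The groups of *Lta4h* and *Ptgds* overlapped. The scale depends on the markers summed, of which *C1qa* was the largest, at means of 765 CPM in *Ptgs*+/+ and 1430 in *Ptgs*-/- tumors. *Adgre1* rose more steeply (27.4 and 70.7 CPM), *Mrc1* (272 and 384) and *Cd68* (84.2 and 114) rose less, and *Cd14* did not rise (24.9 and 20.5). Ratios to single markers were not taken.

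**Figure D4:**
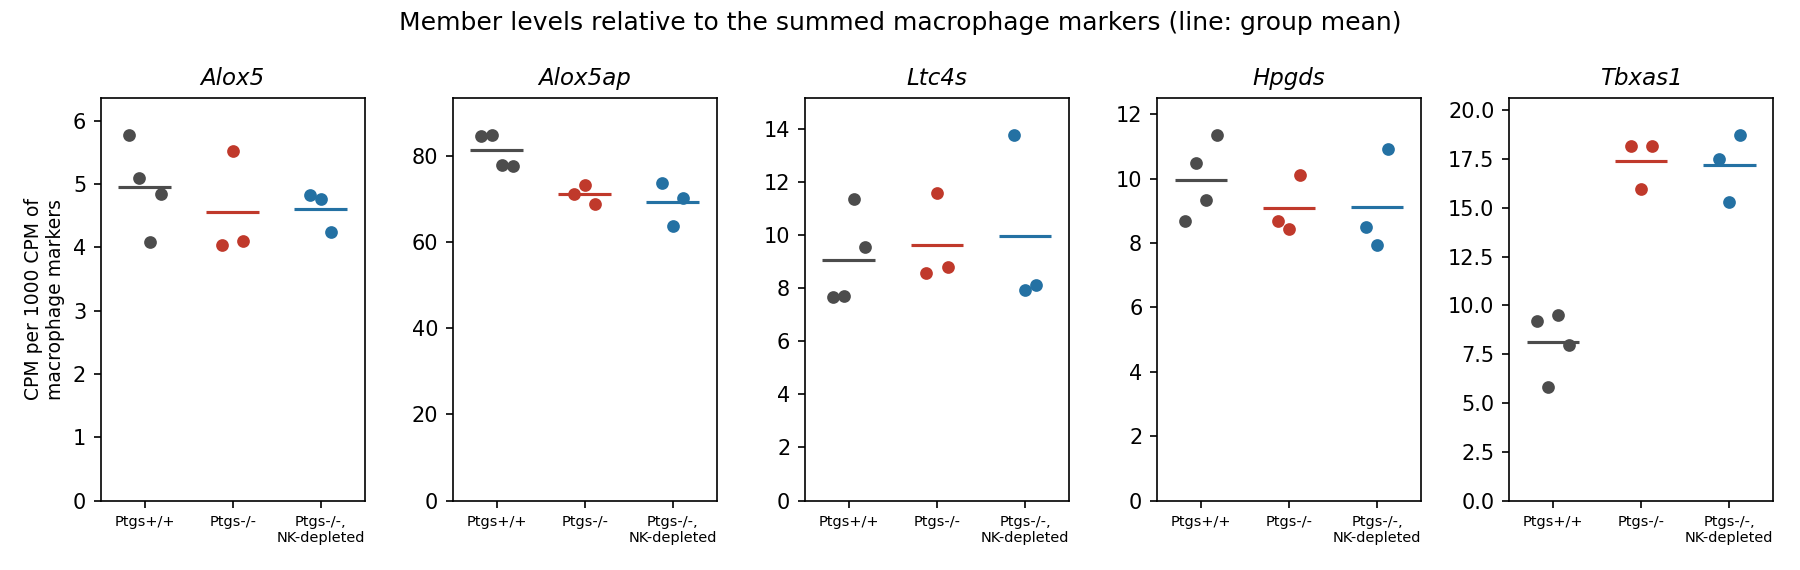
Level of the 5 genes called higher in *Ptgs*-/- against *Ptgs*+/+ tumors, in CPM per 1000 CPM of summed macrophage markers (y axes, from 0), by group; points are libraries and lines are group means. *Tbxas1* is separated by cyclooxygenase genotype, at 5.80 to 9.51 against 15.3 to 18.8, while *Alox5*, *Ltc4s* and *Hpgds* overlap.

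The genes whose levels followed each enzyme most closely were listed by Pearson's r of log2(CPM + 1) over the 10 libraries, which share the group differences and so do not count as independent points. *Tbxas1* was nearest to *Gas7* (r = 0.995, 40.5 to 62.2 CPM in *Ptgs*+/+ and 107 to 172 CPM in all *Ptgs*-/- tumors), to the activation marker *Cd83* (0.99) and to *Mtss1* (0.98). *Alox5* was near to *Tbc1d14* (0.98) and to *Padi4*, the histone-citrullinating enzyme of granulocytes (0.96). *Alox5ap* was nearest to *BE692007* (0.98), to the macrophage transcription factor gene *Maf* (0.97) and to *Tmem28* (0.97). *Ltc4s* went with *Zfp974* (0.95), *Gstm2* (0.93) and *AB124611* (0.93), and *Hpgds* with *Abcc5* (0.97), *Fam78b* (0.97) and the antiviral deaminase gene *Apobec3* (0.97). *Alox15* went with the adenosine receptor gene *Adora3* (0.95), *Tslp* (0.94) and *Mapk14* (0.93). *Ptgis* was nearest to *Dtnbp1* (0.98), to *Cd248*, a marker of fibroblasts and pericytes (0.96), and to *Steap3* (0.96). *Ptgds*, near the floor, reached 0.88 with *Stx17* and 0.86 with *Slc27a4*. *Lta4h* was nearest to *Ctnnd1* (0.99), *Far1* (0.99) and *Cdk9* (0.99), and all 3 shared its low value in *Ptgs*+/+ replicate 3. *Ctnnd1* was at 24.3 CPM there and at 122 to 130 in the other *Ptgs*+/+ tumors, *Far1* at 42.8 against 95.6 to 104, and *Cdk9* at 10.4 against 21.4 to 22.2.

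The rest of the pathway was taken from 9 lists of 55 genes, of which 40 were tested. In *Ptgs*-/- against *Ptgs*+/+ tumors 6 were called higher and 7 lower, the targeted *Ptgs1* and *Ptgs2* among the lower, where 23.1% of all genes were called. The median log2 difference was 0.18. Among the 10 genes that handle leukotrienes, 3 were higher and 0 lower, with a median of 0.63. *Cyp4f18*, which inactivates leukotriene B4 in myeloid cells, rose from 7.94, 4.85, 7.11 and 6.17 CPM to 17.1, 32.5 and 41.2, a log2 difference of 2.15 (standard error 0.27, adjusted p = 0.000353, edgeR). *Dpep2*, the dipeptidase that turns leukotriene D4 into E4, rose from 9.00 to 10.97 CPM to 20.6 to 25.1 (1.14, adjusted p = 0.000244). *Cotl1*, whose product binds 5-lipoxygenase, rose by 0.87 (adjusted p = 0.00263). The genes called higher thus included ones for the making and for the breakdown of leukotrienes.

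Of the 7 leukotriene and lipoxin receptors 3 were tested, with 1 called higher and 0 lower. *Cysltr1*, a receptor of the cysteinyl leukotrienes, rose from 11.8 to 15.3 CPM to 21.5 to 32.3 (log2 difference 0.96, standard error 0.15, adjusted p = 0.00136, edgeR). The untested *Cysltr2*, *Ltb4r2*, *Oxgr1* and *Gpr17* had at most 12 counts in any library. Of the 5 receptors for prostanoids other than PGE2, 2 were tested, with 1 called lower and 0 higher. *Ptgfr*, the PGF2α receptor, fell from 17.6 to 24.7 CPM to 2.21 to 3.93 (-2.87, standard error 0.30, adjusted p = 0.000128, edgeR). The thromboxane receptor gene *Tbxa2r* and the PGD2 receptor genes *Ptgdr* and *Ptgdr2* did not pass the filter, with at most 10 counts in any library, so that the receptor for the product of *Tbxas1* was barely measured. None of the other lipoxygenase genes (*Alox8*, *Alox12*, *Alox12b*, *Alox12e* and *Aloxe3*) passed it either, with at most 13 counts.

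Upstream and on the PGE2 side the pattern was mixed or lower. Among the 8 phospholipase A2 genes tested, which release or remodel arachidonic acid-bearing lipids, *Pla2g2d* (1.11, adjusted p = 0.0320) and *Pla2g15* (0.45, adjusted p = 0.0365) were higher and *Pla2g12a* was lower (-0.52, adjusted p = 0.00532). Of the 5 cyclooxygenase and PGE2 synthase genes 4 were lower: *Ptgs2* (-2.62), *Ptgs1* (-0.76), *Ptges* (-0.64, adjusted p = 0.00968) and *Ptges3* (-0.42, adjusted p = 0.0117). Of the 6 genes of prostanoid transport and breakdown, *Akr1c18* was lower (-1.93, adjusted p = 0.000673), from 312 to 699 CPM to 117 to 188. None of the 3 genes of PGF2α synthesis and none of the 3 of the epoxygenase branch passed the edgeR threshold, with medians of 0.21 and 0.28.

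In NK-depleted against *Ptgs*+/+ tumors, 5 of the 40 genes were higher and 7 lower (median 0.07), against 12.5% of all genes. *Cyp4f18* (1.88, adjusted p = 0.000984), *Dpep2* (0.81, adjusted p = 0.00245), *Cysltr1* (0.52, adjusted p = 0.0487) and *Pla2g2d* (1.57, adjusted p = 0.00888) were again higher, and *Pla2g7*, the platelet-activating factor hydrolase, was too (0.64, adjusted p = 0.0209). *Ptgfr* (-2.15), *Akr1c18* (-2.13), *Ptgs2* (-2.53), *Ptgs1* (-0.69), *Ptges3* (-0.38), *Pla2g12a* (-0.37) and *Fpr2* (-0.84) were lower. Between the 2 *Ptgs*-/- groups 1 of the 40 was called, where 1.44% of all genes were. This was *Fpr2*, a receptor for lipoxin A4 and formyl peptides, which was at 7.97, 14.0 and 9.12 CPM with NK cells and at 4.49, 4.15 and 3.28 without (log2 difference 1.35, standard error 0.24, adjusted p = 0.0137, edgeR). Its *Ptgs*+/+ values of 6.50 to 7.73 CPM lay between these groups.

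**Figure D5:**
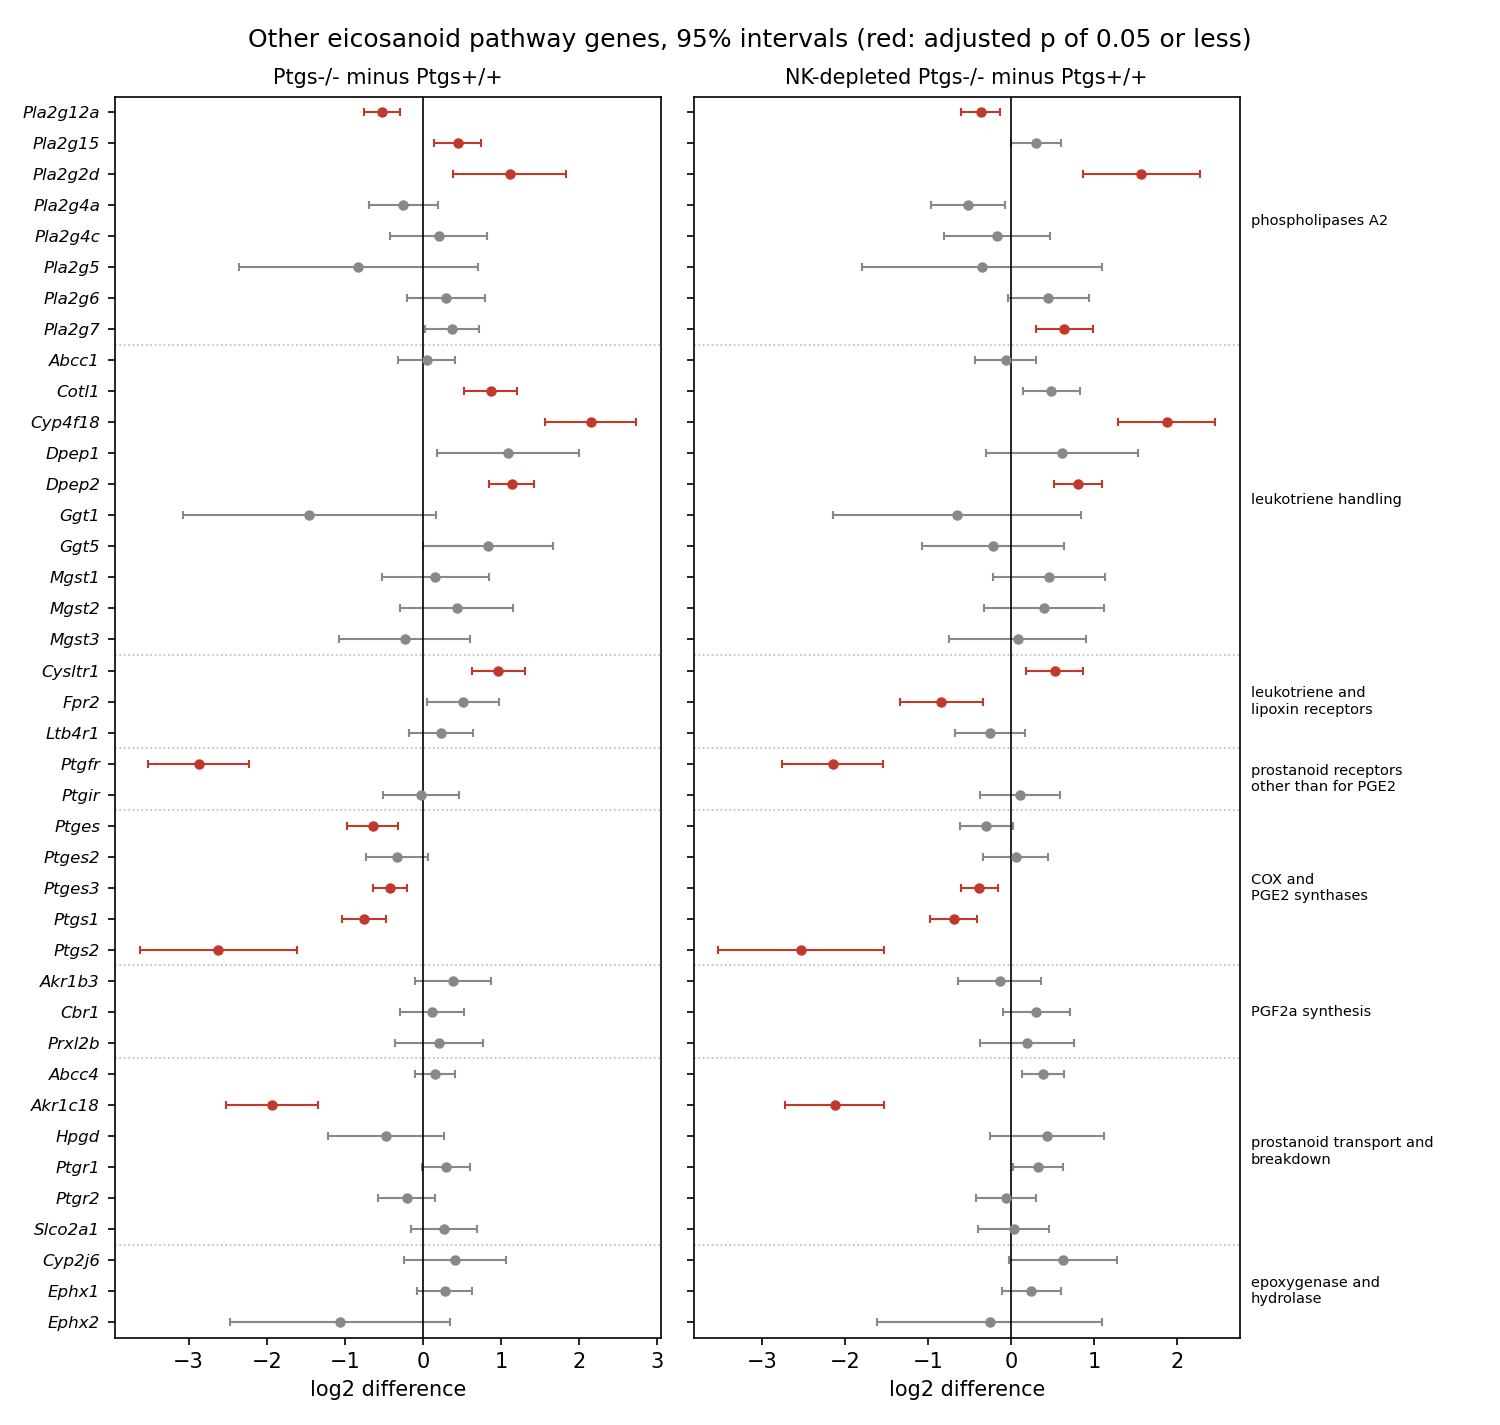
Fitted log2 differences (x axes) with 95% intervals of the 40 other eicosanoid pathway genes tested, grouped by list, in *Ptgs*-/- tumors and in NK-depleted tumors against *Ptgs*+/+ tumors; red marks an adjusted p of 0.05 or less. *Cyp4f18*, *Dpep2* and *Cysltr1* are higher and *Ptgfr* and *Akr1c18* lower in both panels, which share the *Ptgs*+/+ libraries.

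Exons of 4 of the 9 genes overlap exons of a gene on the other strand: *Tbxas1* shares 144 bases with *Gm42962*, *Alox5ap* 189 with *Gm19719*, *Ltc4s* 268 with *Gm26542* and *Ptgis* 156 with *1110018N20Rik*. Since the use of strand in the counting is not stated in the sources used here, reads from these stretches cannot be assigned to a strand.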

How the data were processed

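RNA from 10 tumors was sequenced as QuantSeq 3′ libraries (Lexogen, FWD kit). The authors trimmed reads with BBDUK, fqtrim and cutadapt, used STAR for alignment to GRCm38 and featureCounts for counting on annotation version 86. The deposited table holds the authors' raw counts, neither normalized nor pooled, with a column for each tumor. The submitters' processing notes also name bcl2fastq and edgeR. Use of strand, multimapping reads and molecular identifiers is not given in the sources used here. All columns belong to samples of the series.

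Of 45706 identifiers, 45143 were named by GENCODE release M21 (GRCm38), which gave the coordinates. R 4.3.3 and edgeR 4.0.16 were used: filterByExpr kept 14550 genes, TMM set the scaling, and the quasi-likelihood test compared 3 groups in 1 model of all 10 libraries, with Benjamini-Hochberg adjustment over all genes tested. Calls needed an adjusted p of 0.05 or less. The fold threshold of the study's methods was an alternative. CPM are counts scaled by the library's total, without TMM. Intervals and floors cover counting error or the spread between these libraries only. The 9 genes and all lists were chosen with earlier results of these data known. The genes named are the 9, *Ptgs1*, *Ptgs2* and *Ncr1* as checks, from each pathway list at most the 4 largest differences among genes called, the most abundant marker of each list described, and the 3 genes nearest to each enzyme by Pearson's r. Some genes and patterns that fall under these rules are not reported here. Markers at the floor, other single markers, the pathway genes left untested and the overlapping genes were named after their values were seen. The cause of a missing promoter window was not looked for.

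Replicates differed by 7.41 to 30.1 in chi-square per degree of freedom, so none was counted as a repeat. On simulated data for *Ptgs*-/- against *Ptgs*+/+ tumors, with 14458 genes run, 100 of 100 genes changed by a log2 difference of 2 and 64 of 100 changed by 1 were called, with 4 false calls. The simulation used the same spread for every gene and changed only genes above a cutoff in level, which *Ptgds* does not reach. Libraries that stand apart were not simulated. Alternatives were DESeq2 1.42.0, a likelihood ratio test, other scalings, filters and thresholds, only the groups compared, the title code as a term, libraries of code EB046 alone, the label number as a block, and each library left out.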

Additional observations from a re-analysis of the deposited data

Results flagged for a closer look

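*Lta4h* in *Ptgs*+/+ replicate 3, at 55.1 CPM, lay far below the other *Ptgs*+/+ tumors at 145 to 152 CPM, a gap large enough against the group's range to mark it as apart from them. It was the 1 of the 9 genes tested this way in the 4 *Ptgs*+/+ tumors, and chance marks about 1 in 20. The same library was apart and low in 324 of 14550 genes (2.23%), and its part in other results is given beside them.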

How the results depend on the processing

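Of 527 refits of the 9 genes' differences, 480 kept direction and side of the threshold, 26 kept direction but lost the call, 10 gained one and 11 reversed. *Tbxas1* in both comparisons with *Ptgs*+/+ tumors and *Alox5ap* in *Ptgs*-/- against *Ptgs*+/+ tumors kept their calls in every refit at the same threshold. For the other settings the cause was not tested.

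In *Ptgs*-/- against *Ptgs*+/+ tumors the 5 calls became 1 with the fold threshold of the methods, 3 with code EB046 alone and 2 to 6 with a library left out (2 without *Ptgs*-/- replicate 2), and the 13 other pathway calls became 4 with the fold threshold and 9 to 16 with a library left out. For NK-depleted against *Ptgs*+/+ tumors the 2 calls became 1 with the code as a term or with EB046 alone and 1 to 2 with a library left out, and the 12 pathway calls became 5 with the fold threshold and 7 to 14 with a library left out. Between the *Ptgs*-/- groups the 1 pathway call became 0 with the fold threshold, with only the groups compared and with EB046 alone, and 0 to 1 with a library left out, and the 9 genes had 0 calls in every fit. Over all genes that comparison called 209, but 383 by DESeq2, 403 by the likelihood ratio test, 408 without a filter, 42 with the stricter filter and 93 with EB046 alone.

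*Alox15* in *Ptgs*-/- against *Ptgs*+/+ tumors passed under DESeq2 (adjusted p = 0.0180), the likelihood ratio test (0.0203) and without a filter (0.00881). Reversed values all came from differences that were not called. Over single libraries left out, *Lta4h* ran from -0.085 to 0.28 in *Ptgs*-/- and from -0.038 to 0.32 in NK-depleted against *Ptgs*+/+ tumors, both lowest without *Ptgs*+/+ replicate 3, and *Ptgis* from -0.034 (without *Ptgs*+/+ replicate 2) to 0.17 in the latter. Between the *Ptgs*-/- groups *Lta4h* ran from -0.12 to 0.0094, *Alox15* from -0.95 to 0.13, *Alox5* from -0.037 to 0.54 and *Ltc4s* from -0.037 to 0.57, and *Lta4h* was 0.0067 with EB046 alone. *Ptgds* was not tested under the stricter filter, in 3 fits with a library left out and, between the *Ptgs*-/- groups, with only those compared.

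Label numbers were not taken to pair the tumors: of 11 pairs of libraries with the same number, 4 had deviations correlated above 0.1 (-0.30 to 0.39). The highest value was that of *Ptgs*+/+ replicate 1 with *Ptgs*-/- replicate 1. With so few libraries a group this check cannot exclude pairing. With the replicate block the calls were 6, 0 and 2 of the 9 genes and 13, 1 and 12 pathway genes, the added call being *Alox15* (adjusted p = 0.0304).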
